A study of Homo sapiens with 9 samples.

Results

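The BCL2 family decides whether the mitochondrial outer membrane of a cell stays closed or is opened at the start of apoptosis. The 10 genes read here are 5 pro-survival members, BCL2, BCL2L1, BCL2L2, MCL1 and BCL2A1, and 5 pro-death members, BAK1, BID, BCL2L11, BMF and BIK. They were taken by symbol, with every probe set that the platform's probe table assigns to that symbol alone. This gave 10 of 19775 genes and 30 of 41091 single-gene probe sets, with 17 probe sets for the pro-survival members and 13 for the pro-death members. Probe sets of a gene are named by their rank of brightness within it, from the mean log2 signal over all arrays, and the brightest stands for the gene. The cells were U87, an established human glioma line cultured in DMEM, transfected with 50 nM of a duplex by Lipofectamine RNAiMAX and harvested after 72 h. All groups received a duplex: miR-376a*A (unedited form), miR-376a*G (edited form) or miR-control, with 3 Affymetrix arrays each and 9 arrays in all. The labels call the replicates biological without saying what cultures they came from, so the p-values measure the spread between these arrays. No untransfected cells were analysed here.

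Pro-survival proteins sit on the outer mitochondrial membrane and hold their pro-death relatives in check. BAK1 is a pore-forming effector: once activated it assembles in the membrane and lets cytochrome c out. BID, BCL2L11 (BIM), BMF and BIK carry only the short BH3 segment of the family. They bind the groove of the pro-survival proteins, and BID and BCL2L11 can also activate the effectors directly. Glioma cells often rely on BCL2L1 and MCL1 to stay alive. The array reads messenger RNA only, and much of the family's control lies in protein cleavage, phosphorylation and turnover, which it does not read.

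The microRNA whose name the duplexes carry is the 5′ arm of a hairpin of the chromosome 14 microRNA cluster, and its mature form is shown because the contrast between the A and G duplexes concerns a single edited base of it. The RefSeq entry of MIR376A1, GRCh38.p14 chr14:101040788-101040809 on the plus strand, is printed 5′ to 3′ with the seed, bases 2 to 8, in capitals.
hsa-miR-376a-5p: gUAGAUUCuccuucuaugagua
The labels name the edited duplex by the letter G alone, so its sequence is not printed, and matches of either seed to the members' transcripts were not tested.

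The deposited values are linear intensities that were already scaled, with a trimmed mean near 100 on every array, so each difference is relative to the rest of its array. The median signal was 18.5 to 22.0 on the control arrays, 18.0 to 21.1 on the miR-376a*A arrays and 21.7 to 24.6 on the miR-376a*G arrays. The mean log2 signal of 18 hybridisation control probe sets was 7.51 to 7.70, 7.82 to 7.92 and 7.12 to 7.29 in the same order. The hybridisation controls thus separate each group from the others, with the miR-376a*G arrays lowest. The medians of the miR-376a*G arrays overlap those of control and lie above those of miR-376a*A. The part of these array differences in the results was not tested beyond the scalings given below. Of the glial markers, VIM, CD44 and SLC1A3 were well above the array medians, whereas GFAP, S100B and AQP4 were below them on every array. With miR-376a*G against control 1 of the 4 tested glial markers was called lower, where 15.4% of all genes were. Their median log2 difference was -0.29 beside 0.12 over all genes. Between the forms 2 were higher with miR-376a*A, where 16.4% of all genes were, and their part in the results was not tested. The 6 neuronal markers summed to 2458 to 3912 on the miR-376a*A arrays, 2153 to 2355 on the miR-376a*G arrays and 2292 to 3441 on the control arrays. With miR-376a*G against control 1 of their 4 tested genes was called higher and 2 lower, with a median log2 difference of -1.14 beside 0.12 over all genes, and their part in the results was not tested. Markers of oligodendrocytes, endothelium, epithelium and leukocytes summed to at most 216 on any array.

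Arrays went against their labels in 2 cases. Pearson correlations of log2 signal were taken across the 12587 tested genes, which are not independent replicates. For miR-376a*A replicate 1, as labelled, r was 0.925 and 0.934 against its own group and 0.987 and 0.990 against the 2nd and 3rd control arrays. For control replicate 1, as labelled, r was 0.935 and 0.934 against its own group and 0.990 and 0.982 against the 2nd and 3rd miR-376a*A arrays. SNAP25, a synaptic gene among the neuronal markers, named after its values were seen, shows the pattern, with signals of 254, 1656 and 1825 on the miR-376a*A arrays and 1498, 239.6 and 214 on the control arrays. Group labels were kept, and the calls on the members are given with and without these 2 arrays, called the arrays that stood apart. They were picked from the values under test, for likeness to another group, so leaving them out narrows the spread within groups by selection. All p-values without them are therefore likely too small, and calls made only without them are descriptive. Keeping them has the opposite limit, since it widens the spread within groups and draws the miR-376a*A and control means together. The absence of calls in that comparison with all arrays is therefore no evidence that the 2 groups are alike. Whether the labels of the 2 arrays were exchanged was not tested. The miR-376a*G arrays correlated among themselves at 0.986 to 0.988 and are not affected.

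The first question was which members differed between each microRNA form and control. A gene entered the test when its signal exceeded the array median on at least 3 arrays, and 8 of the 10 members did, 4 of each class. BCL2A1 and BIK stayed below the median on all 9 arrays and were not tested. Differences are on the log2(signal + 1) scale, which understates changes of dim genes, and a member was called at a Benjamini-Hochberg adjusted p under 0.05 in a limma model of all 12587 genes. With miR-376a*G against control, 1 of the 8 tested members was called higher, BAK1, and 1 lower, BID. In that comparison 33.4% of all tested genes were called, 18% higher and 15.4% lower, so the members' share was not above the background. With miR-376a*A against control no member was called, where 0% of all genes were, and no member had an unadjusted p under 0.05 (463 of all 12587 genes did). Between the forms, BID was called higher and BAK1 lower with miR-376a*A than with miR-376a*G, 2 of 8 where 38.2% of all genes were called, 16.4% higher and 21.8% lower. The smallest adjusted p among the members with miR-376a*A against control was 0.886.

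Leaving out the arrays that stood apart gave a much larger background of calls. Leaving out either of them alone gave 0 calls over all genes for miR-376a*A against control. The calls below thus depend on dropping both, a choice made from the same values. With miR-376a*A against control, BCL2L2 and MCL1 were then called higher and BID lower, 3 of 8 members where 41.9% of all genes were called (19% higher, 22.9% lower). The edited form gave MCL1 and BAK1 higher and BID lower against control, 3 of 8 where 56.1% of all genes were called (31.2% higher, 25% lower). Between the forms, BCL2L2, BID and BMF were higher and BAK1 lower with miR-376a*A, 4 of 8 where 59.6% were called (25.7% higher, 34% lower). Of these, BMF was under the median on every miR-376a*G array and was tested only through the other groups. BID and BAK1 were therefore called in the miR-376a*G comparisons both with and without those arrays.

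**Figure D1:**
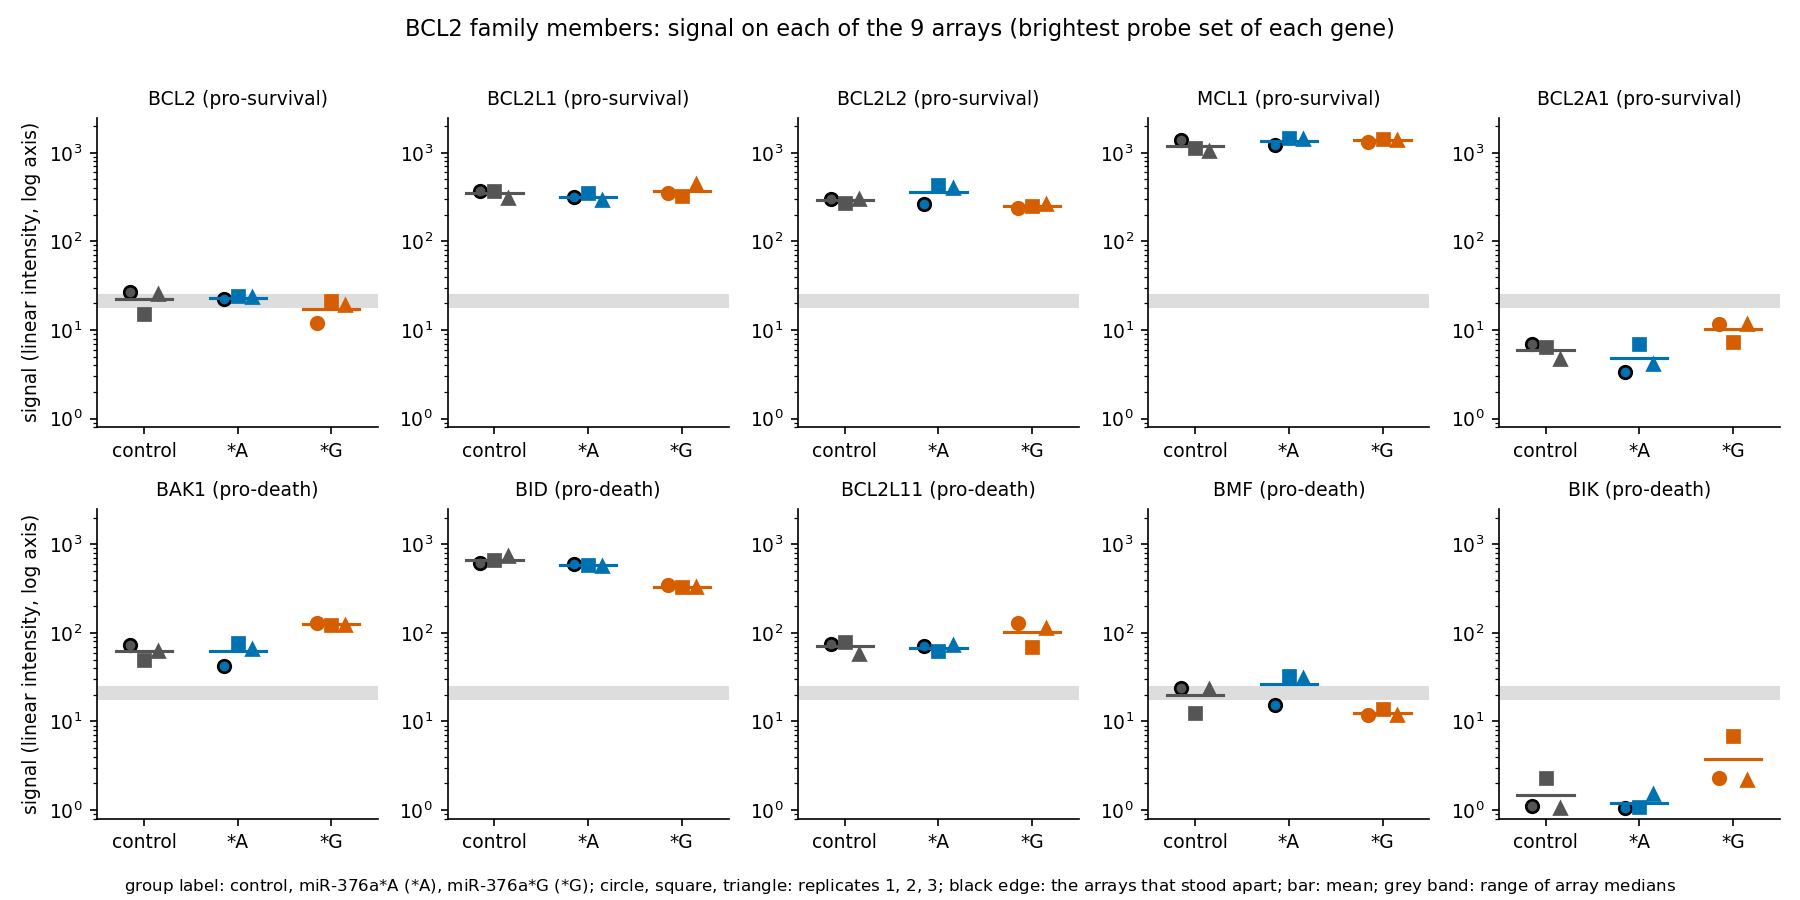
Signal of the brightest probe set of each member (linear intensity on a log axis) on the 9 arrays, by group label, with circles, squares and triangles for replicates 1, 2 and 3, a black edge on the arrays that stood apart, a bar for the group mean and a grey band for the range of array medians, 18.0 to 24.6. BID sits lower and BAK1 higher on all 3 miR-376a*G arrays than on any other array, MCL1 is at 1056 or more throughout, BCL2 and BMF lie near the band, and BCL2A1 and BIK lie under it.

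Among the pro-death members, BID was lower on the miR-376a*G arrays. BID links the death receptors to mitochondria: caspase-8 cuts it, and the cut form moves to the outer membrane. Its brightest probe set read 614, 671 and 729 on the control arrays, 599.6, 588 and 566 on the miR-376a*A arrays, and 343, 326 and 332 on the miR-376a*G arrays. The miR-376a*G arrays form a tight low group that does not touch either of the others. The group means were 671 ± 57.2 for control, 584 ± 17.3 for miR-376a*A and 333 ± 8.54 for miR-376a*G (SD, n = 3). With miR-376a*G, BID fell by 1.00 on the log2 scale against control (SE 0.09, adjusted p = 9.94e-05), which makes control 2.01-fold higher. It was 0.81 higher with miR-376a*A than with miR-376a*G (SE 0.09, adjusted p = 0.000272). Both held on the 7 arrays left after dropping those that stood apart, at -1.07 (adjusted p = 1.09e-06) and 0.79 (adjusted p = 6.7e-06). In RNA from a whole culture, a lower level in every cell and fewer cells that carry the transcript cannot be told apart.

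The 2 other probe sets of BID gave the same picture. The second brightest read 469, 505 and 523 in control, 511, 439 and 492 with miR-376a*A, and 213, 194 and 207 with miR-376a*G. The third read 398, 374 and 390.5, then 391, 380.2 and 408, then 168, 165 and 177 in the same order. On both, control and miR-376a*A arrays overlap and the miR-376a*G arrays lie far under them, by 1.28 (adjusted p = 6.15e-05 over all probe sets) and 1.18 (adjusted p = 6.12e-05) on the log2 scale against control. These differences on the 7 other arrays were -1.33 and -1.16 (adjusted p = 8.3e-07 and 1.55e-06).

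For miR-376a*A against control the BID probe sets did not share a direction. All 3 miR-376a*A arrays read lower than all 3 control arrays on the brightest, a log2 difference of -0.20 (SE 0.09, adjusted p = 0.886). BID was the single tested member whose ranges did not overlap in that comparison, where 6.15% of all genes did not overlap (2.57% above, 3.58% below). The difference was -0.28 without the arrays that stood apart, and it then passed the test (adjusted p = 0.0221). On the second and the third it was -0.06 and 0.02 with all arrays, and -0.15 and 0.04 without them (adjusted p = 0.265 and 0.742).

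BAK1 moved the opposite way. Its only probe set read 73.8, 49.5 and 61.8 on the control arrays, 42.5, 77.9 and 66.2 with miR-376a*A, and 128, 121 and 124 with miR-376a*G. Every miR-376a*G array exceeds every other array, while control and miR-376a*A arrays are interleaved. Group means were 61.7 ± 12.1, 62.2 ± 18.0 and 124 ± 3.32 (SD, n = 3). BAK1 rose 2.03-fold with miR-376a*G against control, a log2 difference of 1.02 (SE 0.23, adjusted p = 0.00913). It was lower with miR-376a*A than with miR-376a*G by 1.03 on the log2 scale, a difference of -1.03 (adjusted p = 0.00762). From control, miR-376a*A differed by -0.01, with a 95% interval from -0.54 to 0.51.

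The arrays that stood apart hold the lowest miR-376a*A value of BAK1 and its highest control value. Without them the difference between miR-376a*G and control was 1.16 (adjusted p = 4.2e-05), that between the forms -0.79 (adjusted p = 0.00051), and that of miR-376a*A from control 0.37 (95% interval 0.04 to 0.70, adjusted p = 0.0721). RefSeq lists the pseudogenes BAK1P1 and BAK1P2, and with a single probe set their possible share of the signal was not tested.

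**Figure D2:**
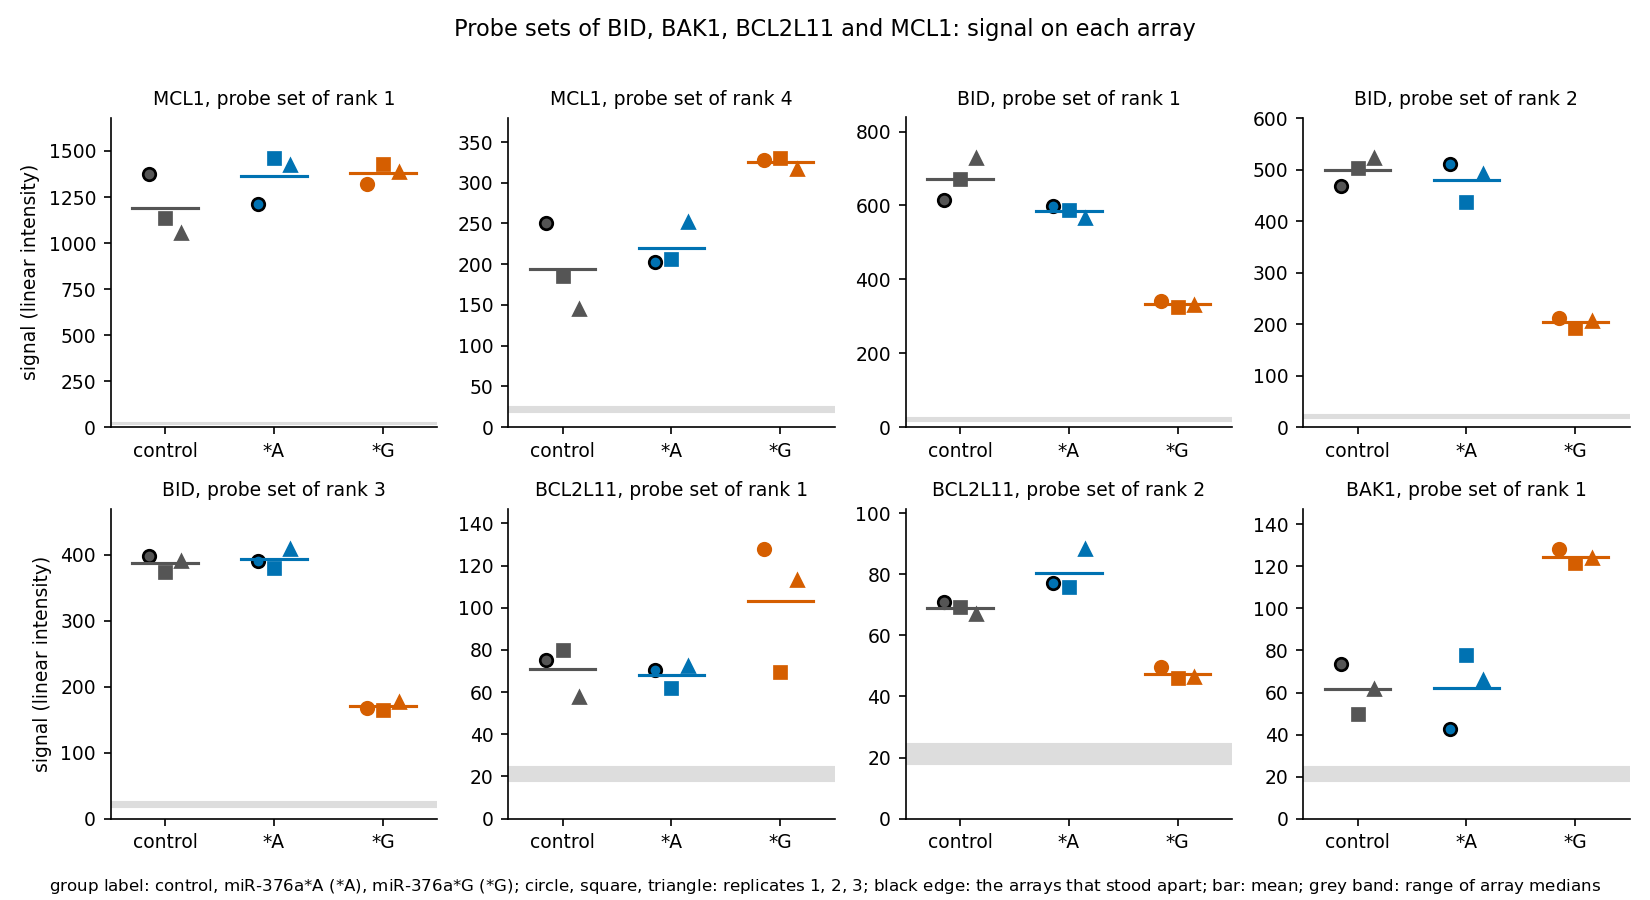
Signal (linear intensity, axes from 0) of 8 probe sets of BID, BAK1, BCL2L11 and MCL1 on each array, with symbols, bars and band as in the plot of all members. All 3 BID probe sets are lowest on the miR-376a*G arrays, the 2 BCL2L11 probe sets lie on opposite sides of control there on average, and the MCL1 probe set of rank 4 rises with miR-376a*G while that of rank 1 overlaps control.

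BCL2L11, which encodes BIM, a BH3 protein that binds all the pro-survival proteins, had 7 probe sets that disagreed. The brightest read 75.3, 79.9 and 57.6 in control, 70.5, 62.0 and 72.5 with miR-376a*A, and 128, 69.4 and 113 with miR-376a*G. Replicate 2 of miR-376a*G lies inside the control range and the other 2 lie above it. The log2 difference between miR-376a*G and control was 0.51 (SE 0.23, adjusted p = 0.13), and 0.56 (adjusted p = 0.0707) on the 7 other arrays. It passed only when that replicate was left out among the fits that drop 1 array (0.77, adjusted p = 0.022).

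The second brightest BCL2L11 probe set read 71.0, 69.1 and 66.9 in control, 77.1, 75.9 and 88.1 with miR-376a*A, and 49.6, 46.2 and 46.3 with miR-376a*G. The 3 groups separate completely here, with miR-376a*A highest and miR-376a*G lowest. The signal fell by 0.53 on the log2 scale with miR-376a*G against control (adjusted p = 0.0109) and was 0.75 higher with miR-376a*A than with miR-376a*G (adjusted p = 0.00188). Its difference between miR-376a*A and control was 0.22 (adjusted p = 0.9), and 0.26 (adjusted p = 0.182) without the arrays that stood apart.

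The other tested BCL2L11 probe sets fell on both sides. With miR-376a*G against control, the third, the fourth and the sixth differed by 0.49, 0.35 and 0.29, and the fifth by -0.32, none of them called. With the arrays that stood apart left out, the third and the fourth were called higher (adjusted p = 0.0304 and 0.0346) while the second stayed called lower (adjusted p = 0.00805). Between the forms, the fifth was called higher with miR-376a*A (0.59, adjusted p = 0.0329), a call lost without any 1 of the arrays of either form or control replicate 2. It was called on the 7 other arrays (0.60, adjusted p = 0.0312). The seventh was below the median on all arrays. Which transcripts each probe set reads was not tested, so no single direction is given for BCL2L11.

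BMF, a BH3 protein tied to the cytoskeleton through dynein light chain in healthy cells, gave signals near the array medians. It entered the test through 4 arrays, 2 of miR-376a*A and 2 of control, and was below the median on every miR-376a*G array, so its comparisons with miR-376a*G could be tested only because it is higher elsewhere. Its single probe set read 23.9, 12.6 and 23.4 in control, 15.4, 32.3 and 31.2 with miR-376a*A, and 11.9, 13.7 and 11.8 with miR-376a*G. The miR-376a*G arrays are low and close together, and all miR-376a*A arrays lie above them. Between the forms the log2 difference was 0.95 (SE 0.35, adjusted p = 0.0571), and 1.28 (adjusted p = 0.00374) without the arrays that stood apart. Leaving out miR-376a*A replicate 1 alone, or control replicate 2 alone, also brought it past the threshold (adjusted p = 0.0107 and 0.0438). Against control, miR-376a*G differed by -0.59 (adjusted p = 0.222) and miR-376a*A by 0.36 (adjusted p = 0.886). The 7 other arrays gave -0.44 (adjusted p = 0.239) and 0.84 (95% interval 0.11 to 1.58, adjusted p = 0.0644). BIK, a BH3 protein of the endoplasmic reticulum, read between 1.05 and 6.89 on all 9 arrays, under every array median.

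Among the pro-survival members, MCL1 read 1056 or more on every array and was not called with all arrays as deposited, but was called higher with either microRNA form after leaving out the arrays that stood apart. It encodes a short-lived protein that binds BAK1 and BCL2L11. Its brightest probe set read 1376, 1139 and 1056 in control, 1210.5, 1462 and 1423 with miR-376a*A, and 1320.0, 1432 and 1385 with miR-376a*G. The control array that stood apart reads highest of its group and the miR-376a*A array that stood apart lowest of its own. With all arrays, MCL1 differed from control by 0.20 with miR-376a*A (SE 0.11, adjusted p = 0.886) and by 0.22 with miR-376a*G (SE 0.11, adjusted p = 0.169). On the 7 other arrays these were 0.40 (adjusted p = 0.00281) and 0.33 (adjusted p = 0.00334), both called. These p-values are likely too small, because the arrays left out were picked from the same data. Leaving out control replicate 1 alone also brought the miR-376a*G difference past the threshold (adjusted p = 0.0385). Between the forms the difference was -0.02 with all arrays and 0.07 without those 2, with a 95% interval from -0.10 to 0.23.

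The 6 MCL1 probe sets all had positive differences between miR-376a*G and control, from 0.17 to 0.78, and 1 of them was called. That probe set, the fourth in brightness, read 250.4, 186 and 145 in control, 203, 206 and 252 with miR-376a*A, and 328, 330.5 and 317 with miR-376a*G. The miR-376a*G arrays lie together above all the others. The rise was 0.78 (SE 0.19, adjusted p = 0.0135), and 0.98 (adjusted p = 7.05e-05) without the arrays that stood apart. It was also called lower with miR-376a*A than with miR-376a*G (-0.57, adjusted p = 0.0457, and -0.51, adjusted p = 0.00461, without those 2). With all 9 arrays as the start, that call was lost without any 1 of the arrays of either form or control replicate 2. Without them all 6 were called higher with miR-376a*G and 5 of 6 with miR-376a*A, the exception being the dimmest (0.38, adjusted p = 0.219).

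BCL2L2, which encodes the pro-survival protein BCL-W, was higher with miR-376a*A than in either other group once the arrays that stood apart were left out. Its brightest probe set read 298, 272 and 303 in control, 263, 434 and 397 with miR-376a*A, and 240.5, 251 and 262 with miR-376a*G. Replicates 2 and 3 of miR-376a*A lie far above all other arrays, whereas replicate 1 lies beside the miR-376a*G arrays, and all control arrays lie just above those. With all arrays the difference was 0.29 between miR-376a*A and control (SE 0.18, adjusted p = 0.886), 0.50 between the forms (adjusted p = 0.0506) and -0.21 for miR-376a*G from control (adjusted p = 0.392). Without those 2 arrays they were 0.53 (adjusted p = 0.00146), 0.72 (adjusted p = 4.16e-05) and -0.19 (adjusted p = 0.0887). Leaving out miR-376a*A replicate 1 alone brought the difference between the forms past the threshold (adjusted p = 0.00132).

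The second BCL2L2 probe set read 76.1, 42.3 and 37.4 in control, 55.5, 63.3 and 84.9 with miR-376a*A, and 29.7, 28.4 and 35.4 with miR-376a*G. Every miR-376a*A array lies above every miR-376a*G array. That difference was 1.08 and called (SE 0.27, adjusted p = 0.014), and 1.21 (adjusted p = 0.000221) on the 7 other arrays. The call was lost without miR-376a*A replicate 3 or miR-376a*G replicate 2. The difference between miR-376a*A and control was 0.43 (adjusted p = 0.9), and 0.87 without those 2 arrays (adjusted p = 0.00637). RefSeq also lists a read-through gene, BCL2L2-PABPN1, and 1 probe set listing BCL2L2 beside another gene was not used. Its part in these signals was not tested.

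BCL2L1, the gene of BCL-XL, gave no call at gene level in any of the 3 comparisons. Its brightest probe set read 368, 374 and 311 in control, 319, 352 and 290.5 with miR-376a*A, and 355, 325.5 and 444 with miR-376a*G. The 3 groups overlap throughout. The differences were 0.09 for miR-376a*G and -0.13 for miR-376a*A against control, with 95% intervals from -0.24 to 0.42 and from -0.46 to 0.20, and -0.22 between the forms (interval -0.55 to 0.12). On the 7 other arrays they were 0.12, -0.09 and -0.22, again without a call.

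Of the 3 other BCL2L1 probe sets, 2 were lower with miR-376a*A than with miR-376a*G. The dimmest read 44.4, 43.0 and 42.6 with miR-376a*A against 71.4, 60.6 and 131 with miR-376a*G, a difference of -0.92 (adjusted p = 0.0328). The third in brightness read 36.3, 65.7 and 43.2 against 83.9, 91.1 and 83.1, a difference of -0.86 (adjusted p = 0.0455). The 2 forms do not overlap on either, but single arrays decide the calls. That on the dimmest was lost without replicate 2 or 3 of miR-376a*A or 1 or 3 of miR-376a*G, and that on the third without any 1 of the miR-376a*G arrays, miR-376a*A replicate 1 or 3 or control replicate 3. The second in brightness differed by -0.59 and was not called (adjusted p = 0.129), nor was it on the 7 other arrays (-0.56, adjusted p = 0.116). Control arrays read 50.2, 63.3 and 38.3 on the dimmest, overlapping both forms, and 79.5, 38.4 and 44.6 on the third, overlapping miR-376a*A alone. The differences between the forms on the 7 other arrays were -0.94 and -0.68 (adjusted p = 0.0201 and 0.00758), and the third was also called higher with miR-376a*G than in control (1.04, adjusted p = 0.00067). RefSeq lists an antisense gene, BCL2L1-AS1, and its part was not tested.

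BCL2 itself was barely above the array median in U87 cells. The brightest of its 4 probe sets read 26.6, 15 and 25.2 in control, 22.1, 24.3 and 23.4 with miR-376a*A, and 12.1, 21.2 and 19.1 with miR-376a*G. It was above the median on 5 of 9 arrays, none of them of miR-376a*G, so it too was tested only through the other groups. All miR-376a*A arrays lie above all miR-376a*G arrays, by a log2 difference of 0.43 that was not called (SE 0.29, adjusted p = 0.268). The difference from control was 0.10 with miR-376a*A and -0.33 with miR-376a*G (adjusted p = 0.943 and 0.408), and neither was called without the arrays that stood apart (0.28 and -0.19). The 3 other BCL2 probe sets were under the median on every array. BCL2A1 read 6.87, 6.42 and 4.75 in control, 3.32, 6.93 and 4.12 with miR-376a*A, and 11.8, 7.24 and 11.6 with miR-376a*G, and at that level it was not tested.

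**Figure D3:**
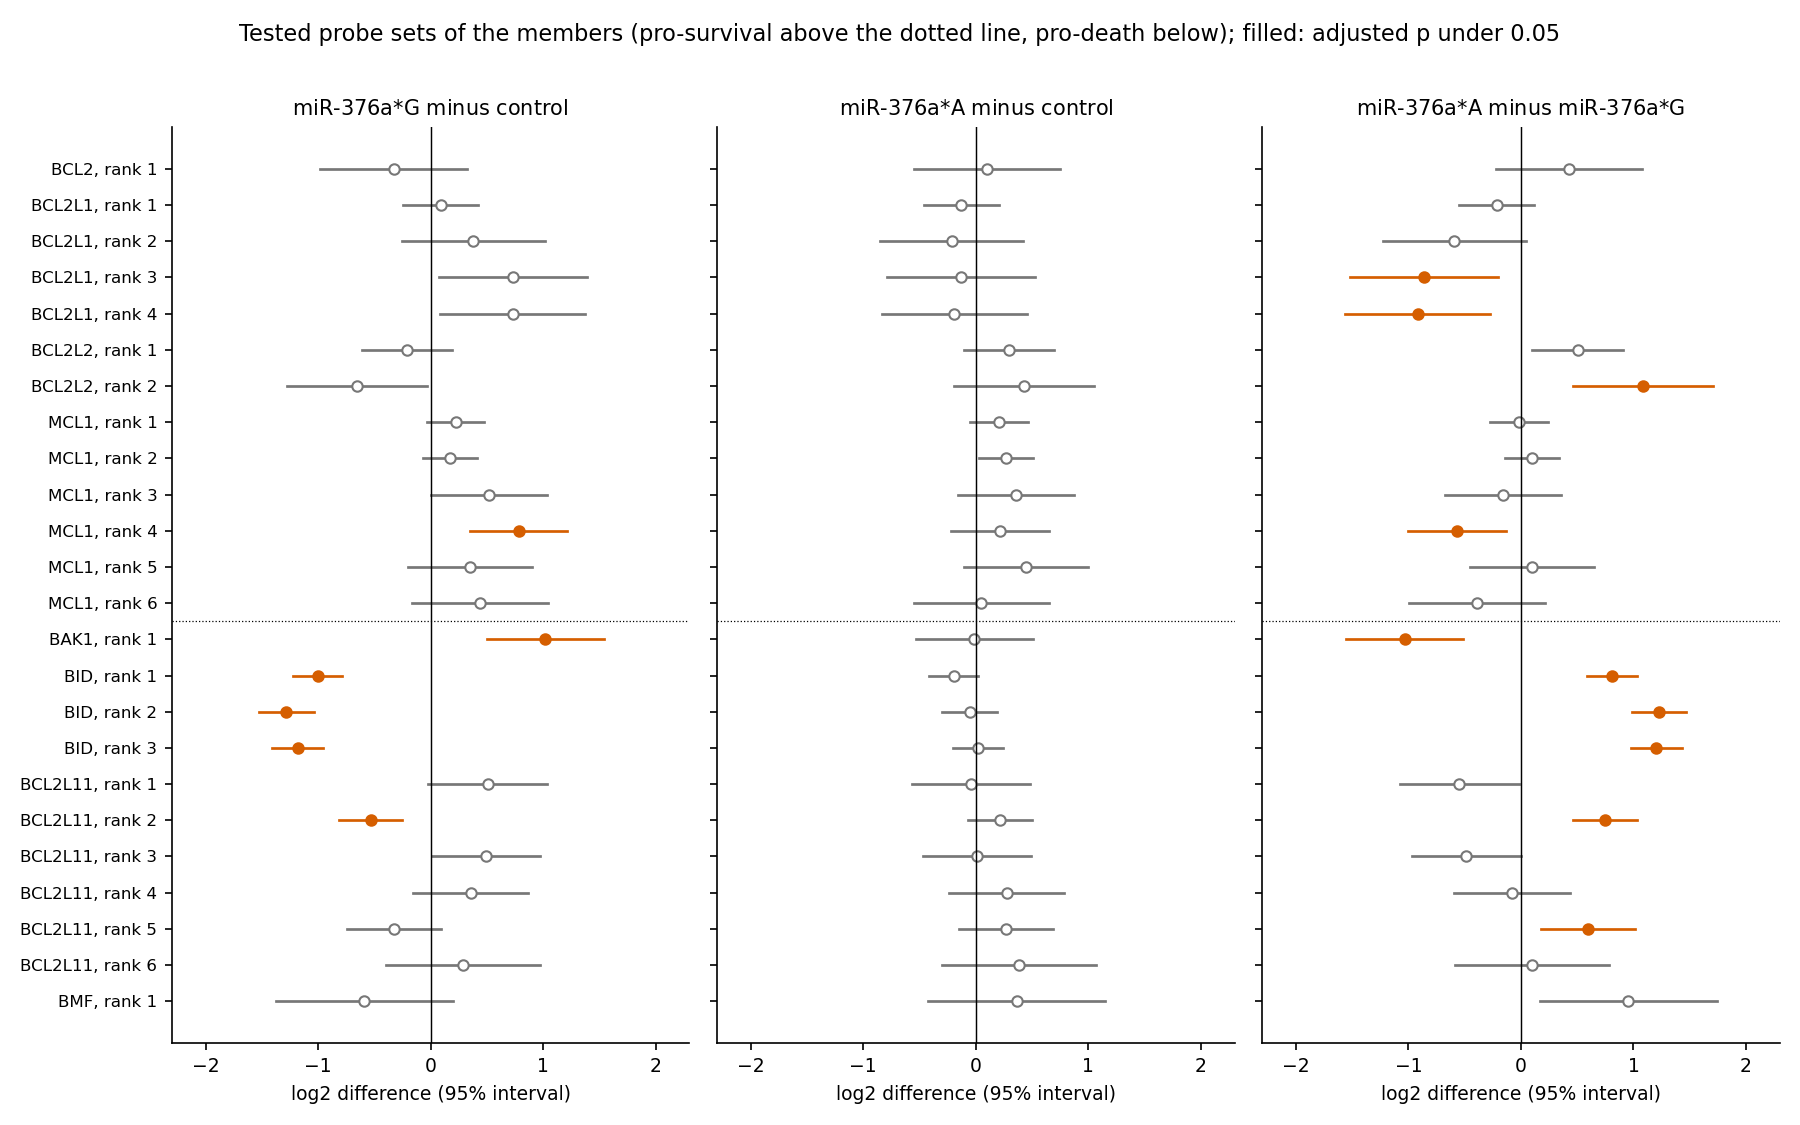
Log2 difference with its 95% interval for each of the 24 tested member probe sets in the 3 comparisons, pro-survival members above the dotted line and pro-death members below, filled where the adjusted p over all probe sets was under 0.05. The 3 BID probe sets lie near -1 or below in miR-376a*G against control, all 6 MCL1 probe sets lie to the right of 0 there, the BCL2L11 probe sets lie on both sides, and no probe set is filled in miR-376a*A against control.

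Over probe sets, 2 of the 24 tested were called higher with miR-376a*G against control (MCL1 and BAK1, 1 each) and 4 lower (3 of BID and 1 of BCL2L11), where 32.3% of all 24310 tested probe sets were called, 16.6% higher and 15.6% lower. With miR-376a*A against control none was called, where 0% of all probe sets were, and 1 member probe set had an unadjusted p under 0.05 (840 of all probe sets did). Between the forms 6 were higher and 4 lower with miR-376a*A, where 36.1% were called, 16.6% higher and 19.6% lower. The 6 include the fifth BCL2L11 probe set, which entered the test only through the miR-376a*A and control arrays. Probe sets of a gene are not replicates, and BID, MCL1 and BCL2L11 supply 15 of the 24. When the arrays that stood apart were left out, 8 were higher and 1 lower with miR-376a*A against control, where 40.2% of all probe sets were called (18.2% higher, 22% lower). For miR-376a*G against control 10 were higher and 4 lower, where 54.3% were called (29.1% higher, 25.1% lower). Between the forms 9 were higher and 4 lower, where 58.3% were called (25.5% higher, 32.8% lower).

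The classes were then set side by side. With miR-376a*G against control, the 4 tested pro-survival genes had a median log2 difference of -0.06 and none was called, and the 4 tested pro-death genes had a median of -0.04 with BAK1 higher and BID lower, beside 0.12 over all tested genes. With miR-376a*A against control the medians were 0.15 and -0.03, beside -0.02 over all genes. Between the forms they were 0.20 and 0.13, beside -0.14. The pro-death class had no common direction, since its 2 called members, BAK1 and BID, moved by about the same amount in opposite ways. With miR-376a*G against control, BMF (-0.59) and BCL2L11 (0.51) were not called, and no tested pro-death gene lay near the median of -0.04. BMF, and BCL2 among the pro-survival genes, were tested only through the other groups. The strictest filter drops both and gave medians of 0.087 for pro-survival and 0.51 for pro-death genes. With 3 genes left in each class, these medians are the values of BCL2L1 and BCL2L11, neither of them called. The second lies between BID and BAK1, so it shows no common rise of the pro-death class.

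Over probe sets the classes lay further apart. The 13 tested of the pro-survival members had a median of 0.35 with miR-376a*G against control and the 11 of the pro-death members -0.32, beside 0.10 over all tested probe sets. Of the first, 1 was called higher and none lower, and of the second, 1 was higher and 4 lower. Over all tested probe sets 16.6% were higher and 15.6% lower. On the 7 other arrays the medians were 0.45 and -0.20, with 7 of 13 called higher and none lower against 3 of 11 higher and 4 lower. On those arrays 29.1% of all tested probe sets were higher and 25.1% lower. These counts lean on MCL1, with 6 of the 13, and on BCL2L11 and BID, with 6 and 3 of the 11. Both pro-death medians are the value of the fifth BCL2L11 probe set. That probe set was under the array median on every miR-376a*G array and was tested only through the other groups, which limits the contrast of the classes.

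**Figure D4:**
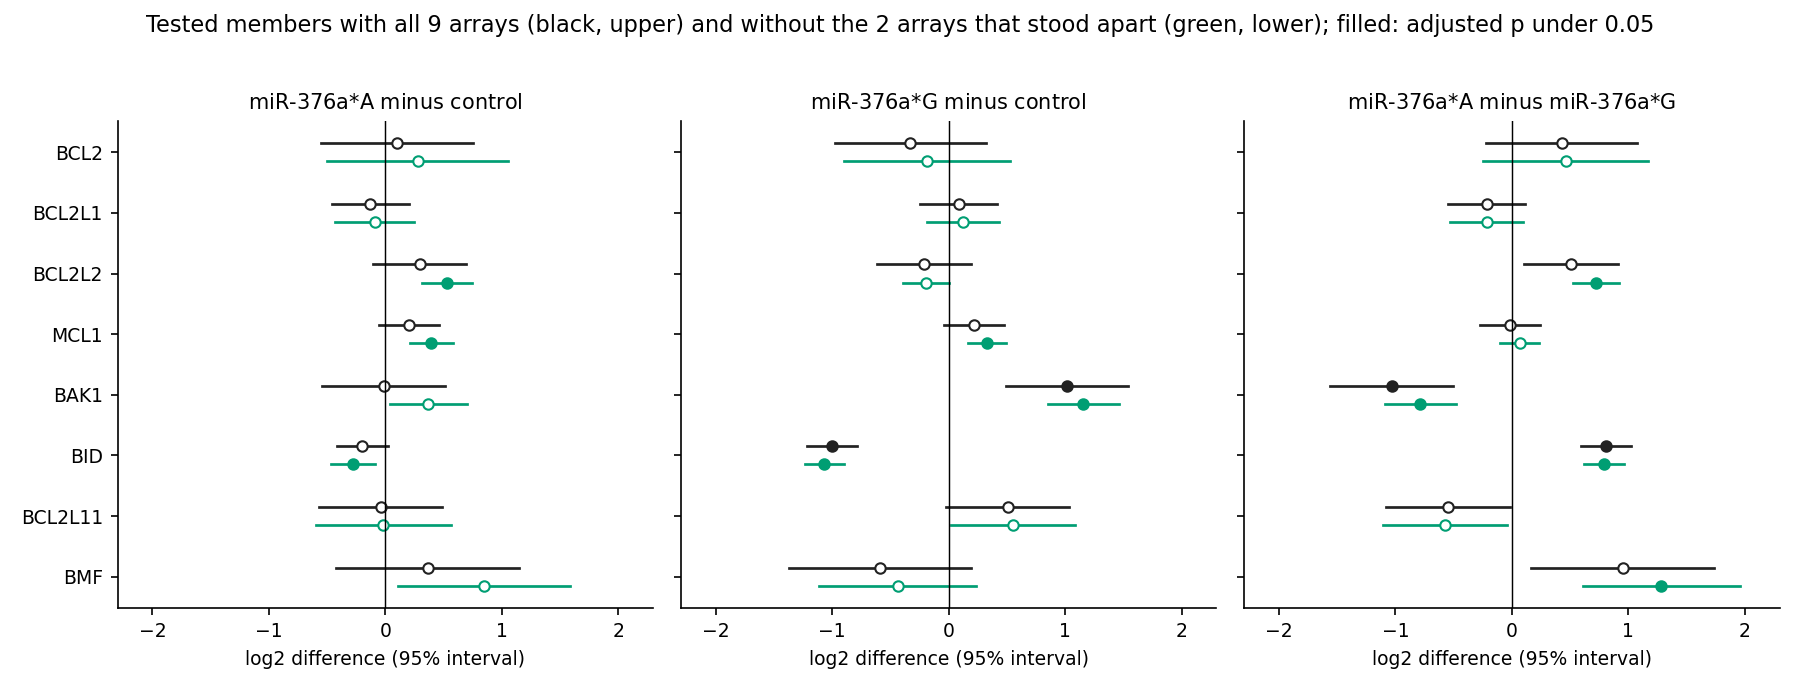
Log2 differences with 95% intervals for the 8 tested members in the 3 comparisons, with all 9 arrays (black, upper) and without the 2 arrays that stood apart (green, lower), filled where the adjusted p was under 0.05. BID and BAK1 keep their side of 0 in both miR-376a*G comparisons. BCL2L2, MCL1 and BID are filled against control with miR-376a*A in green alone (0.53, 0.40 and -0.28).

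The members were also counted by whether the ranges of the groups overlapped. With miR-376a*G against control, 3 of 8 members did not overlap (BAK1 above, BID and BCL2L2 below), where 53.4% of all genes did not (31.1% above, 22.3% below). Between the forms 5 of 8 did not overlap (BCL2, BCL2L2, BID and BMF above and BAK1 below with miR-376a*A), where 53.5% of all genes did not (21.8% above, 31.8% below). Both shares are near the background. BCL2 and BMF were under the median on every miR-376a*G array and entered the count only through the other groups. On the 7 other arrays, 5 of 8 did not overlap with miR-376a*A against control (BCL2L2, MCL1, BAK1 and BMF above, BID below), where 69.5% of all genes did not (34.3% above, 35.2% below). For miR-376a*G against control it was then 4 of 8 (MCL1 and BAK1 above, BCL2L2 and BID below), where 73.5% of all genes did not (42.6% above, 30.9% below). Between the forms the same 5 members did not overlap, where 72% of all genes did not (30.6% above, 41.4% below).

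The scaling of the arrays moved the direction of calls over all genes. As deposited, 53.9% of all genes called with miR-376a*G against control were higher, against 29.1% when arrays were centred on their medians and 85.4% when they were scaled to the hybridisation controls, and between the forms 43.0%, 70.1% and 7.75% were higher. The median difference over all genes was 0.12, -0.12 and 0.51 with miR-376a*G against control and -0.14, 0.11 and -0.80 between the forms. BAK1 and BID kept their direction and call with miR-376a*G against control in 22 of 22 other settings, from 0.59 to 1.42 and from -1.24 to -0.61. BAK1 did so between the forms in 22 of 22. BID kept its call between the forms in 21 of 22, and was 0.14 higher with miR-376a*A (adjusted p = 0.294) when arrays were scaled to the hybridisation controls. MCL1 and BCL2L11 were called higher with miR-376a*G against control under that scaling (0.62 and 0.90, adjusted p = 0.00334 and 0.0224).

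The genes with the profile most like a called member's were named by the smallest root-mean-square difference of centred log2 values over the 9 arrays. For BID these were RTN1 (0.068), KMT2E (0.074) and PRICKLE2 (0.074), where the median over all other tested genes was 0.587. For BAK1 they were RIPOR3-AS1 (0.103), TRIM61 (0.108) and ZNF717 (0.113), with a median of 0.579. Between miR-376a*G and control, the log2 differences of BID's 3 genes ran from -1.0 to -0.94 and those of BAK1's 3 genes from 0.95 to 1.14. These genes were picked for likeness over the same 9 arrays, so differences close to the member's own follow from the choice.

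Of the other BCL2 family genes, 11 of 15 listed were tested, and with miR-376a*G against control 3 rose and 3 fell, where 18% and 15.4% of all genes did, with a list median of -0.01 beside 0.12 over all genes. BNIP3L and BNIP3, BH3-like proteins of hypoxia and mitophagy, fell by 1.34 and 1.23 on the log2 scale (adjusted p = 1.05e-05 and 0.000128). BNIP3L read 1762 to 2010.1 in control and 709 to 775 with miR-376a*G, the groups lying far apart. BNIP1 and BCL2L12 rose by 0.90 and 1.05 (adjusted p = 0.000375 and 0.00188). With miR-376a*A against control none of the 11 was called.

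The remaining calls in that list concern BAX and PMAIP1, named here after their values were seen because they are the partner effector of BAK1 and the BH3 protein (NOXA) that binds MCL1. BAX read 480.4, 317 and 338 in control, 308, 349 and 373 with miR-376a*A, and 203, 265 and 191 with miR-376a*G. It fell by 0.77 with miR-376a*G against control (adjusted p = 0.0128), the opposite direction to BAK1, and its other probe set fell by 0.73 (adjusted p = 0.00577). The BAX call was lost without miR-376a*G replicate 1 or 3 (adjusted p = 0.0519 and 0.055) and with scaling to the hybridisation controls (-0.37, adjusted p = 0.115). PMAIP1 read 481, 686 and 762 in control, 751, 448 and 429 with miR-376a*A, and 1061, 1168 and 963 with miR-376a*G. It rose by 0.75 (adjusted p = 0.0376), a call lost without any 1 of the miR-376a*G arrays or of control replicates 1 and 2 (adjusted p from 0.0667 to 0.116). Its other probe set differed by 0.31 (adjusted p = 0.388).

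Of the 11 mitochondrial release and apoptosome genes, which include cytochrome c (CYCS) and its partner APAF1, none was called in any of the 3 comparisons. Their differences between miR-376a*G and control ran from -0.34 to 0.35 with a median of 0.14, beside 0.12 over all genes, and the smallest p belonged to VDAC3 (0.19, adjusted p = 0.0653), AIFM1, ENDOG and DIABLO. On the 7 other arrays 3 were called higher there, AIFM1, ENDOG and DIABLO (0.35, 0.31 and 0.41).

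Of the 6 tested caspases, 2 rose with miR-376a*G against control and none fell, a share near the 33.4% of all genes called. CASP4, an inflammatory caspase, read 54.5 to 95.9 in control and 299 to 353 with miR-376a*G, with no overlap, and rose by 2.06 (SE 0.22, adjusted p = 0.000167). CASP2 rose by 0.47 (adjusted p = 0.0167), a call lost without miR-376a*G replicate 2 or 3 (adjusted p = 0.053 and 0.0722). CASP8, the enzyme that cuts BID, differed by -0.54 (adjusted p = 0.0825), and by -0.75 without those 2 arrays (adjusted p = 3.78e-05). CASP1 differed by 0.47 (adjusted p = 0.065). Of the 5 tested inhibitors of apoptosis, 2 were called, beside the same 33.4%: BIRC5 (survivin) rose by 1.88 (adjusted p = 1.88e-05) and BIRC2 by 0.39 (adjusted p = 0.0492). The BIRC2 call was lost without any 1 of the miR-376a*G arrays, miR-376a*A replicate 3 or control replicate 1 or 2 (adjusted p from 0.0693 to 0.131). XIAP, which blocks caspases directly, read 413, 789 and 815 in control, 754, 402 and 403 with miR-376a*A, and 398, 401 and 349 with miR-376a*G, so that its groups are split by the arrays that stood apart. With all arrays XIAP differed from control by -0.37 with miR-376a*A and by -0.75 with miR-376a*G, neither called (adjusted p = 0.886 and 0.0906). Only without the arrays that stood apart was it called lower with both forms, by 0.99 with miR-376a*A (adjusted p = 1.53e-05) and by 1.07 with miR-376a*G (adjusted p = 2.12e-06). These values are of the brightest of its 7 probe sets.

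The death receptor pathway, whose signal BID carries to mitochondria, had 5 of 9 tested genes lower with miR-376a*G against control and none higher, where 15.4% of all genes were lower and 18% higher, with a median of -0.55 beside 0.12 over all genes. TNFRSF10B, a TRAIL receptor, read 961 to 1065 in control and 383 to 429 with miR-376a*G and fell by 1.32 (adjusted p = 2.16e-05). The adaptor TRADD fell by 0.78 (adjusted p = 0.000737), the caspase-8 inhibitor CFLAR by 0.55 (adjusted p = 0.00238) and the TNF receptor TNFRSF1A by 0.40 (adjusted p = 0.0276). The TNFRSF1A call was lost without miR-376a*G replicate 1 or 3 or control replicate 2 or 3 (adjusted p from 0.0709 to 0.111). TNFRSF10D, a decoy receptor named after its value was seen, fell by 0.90 (adjusted p = 0.0293), and by 0.65 (adjusted p = 7.3e-05) on the 7 other arrays. TRADD averaged over its probe sets differed by -0.20 (adjusted p = 0.415), and 1 of the other probe sets of TNFRSF10B differed by 0.42 (adjusted p = 0.27).

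Of 9 tested genes that tether BH3 proteins or turn MCL1 over, 3 rose with miR-376a*G against control and none fell, again near the 33.4% of all genes called. DYNLL2, the dynein light chain that holds BMF, rose by 0.57 (adjusted p = 0.0194), and the ubiquitin ligases MARCHF5 and FBXW7 rose by 0.56 and 0.50 (adjusted p = 0.00433 and 0.0183). None of these 3 kept its call when arrays were centred on their medians (adjusted p = 0.199, 0.186 and 0.28). The calls of DYNLL2 and FBXW7 were lost without miR-376a*G replicate 1 or 3 or control replicate 3 (adjusted p from 0.0631 to 0.0697 and from 0.0511 to 0.0804), and other probe sets of FBXW7 differed by 0.84, 0.17 and -0.09. YWHAZ, a protein that holds phosphorylated BAD, differed by -0.30 (adjusted p = 0.055).

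Of 13 tested transcription factors that act on BCL2 family genes, 2 rose and 3 fell with miR-376a*G against control, where 18% and 15.4% of all genes did, with a median of 0.14 beside 0.12. DDIT3 (CHOP), which drives BCL2L11 under stress of the endoplasmic reticulum, read 155 to 180 in control and 422 to 445 with miR-376a*G and rose by 1.4 (adjusted p = 6.74e-05). E2F1 rose by 1.45 (adjusted p = 0.00412). STAT3, an activator of MCL1 and BCL2L1, fell by 1.10 (adjusted p = 0.00168). HIF1A fell by 0.35 (adjusted p = 0.0285), a call lost without any 1 of the miR-376a*G arrays or of control replicates 1 and 3 (adjusted p from 0.0535 to 0.0938). It turned to 0.047 (adjusted p = 0.693) with scaling to the hybridisation controls. JUN, named after its value was seen, fell by 0.44 (adjusted p = 0.046), and by 0.31 (adjusted p = 0.00622) on the 7 other arrays. With miR-376a*A against control no gene of these 7 lists was called with all arrays, where 0% of all genes were. The 7 other arrays gave calls in every list, where 19% of all genes were called higher and 22.9% lower. The death receptor pathway had 4 higher and 0 lower, the caspases 0 and 3, and the inhibitors of apoptosis 0 and 1. The other BCL2 family genes had 1 higher and 3 lower, the release genes 1 and 2, the tethers and MCL1 turnover genes 3 and 2, and the transcription factors 4 and 3.

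**Figure D5:**
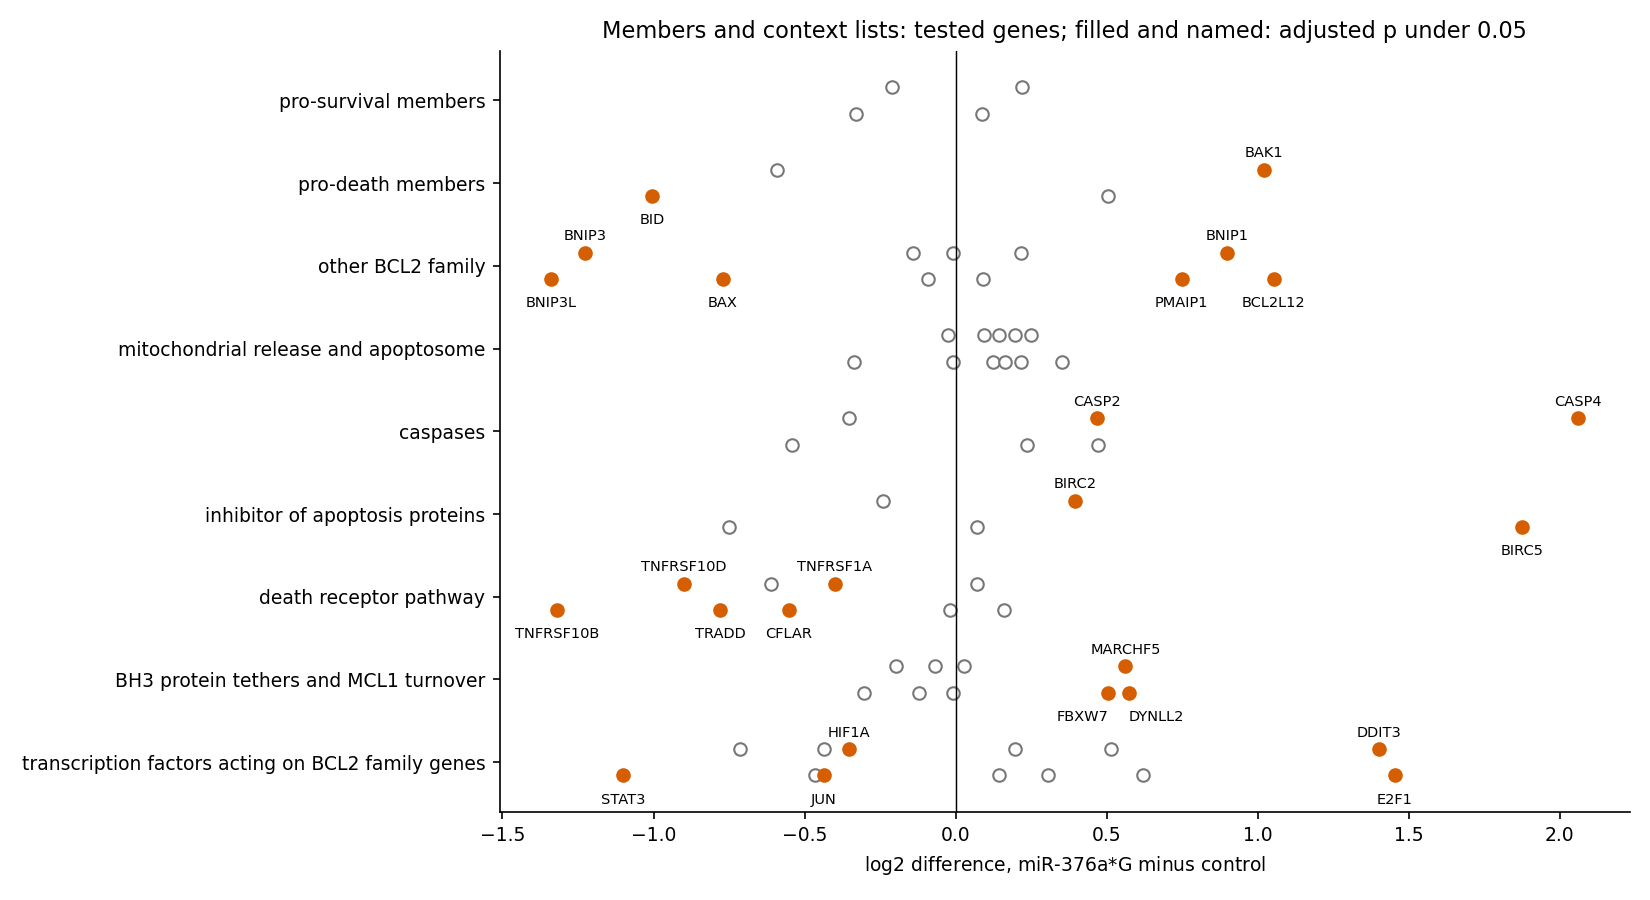
Log2 difference between miR-376a*G and control (horizontal axis) for each tested gene of the 2 member classes and of the 7 lists of related genes, filled and named where the adjusted p was under 0.05. The pro-death members spread from BID at -1.0 to BAK1 at 1.02, the called death receptor genes all lie to the left of 0, and no mitochondrial release gene is filled.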

How the data were processed

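The authors deposited 1 linear intensity per array for each of 54675 probe sets, and the submitters' processing notes name GCOS 1.4.0.036. For the summarisation method and its annotation, the sources used here give nothing. The labels' protocols state biotin-ULS labelling of total RNA.

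Probe sets took their gene from the GEO platform annotation, and 19735 of 19775 symbols matched RefSeq GRCh38.p14 by Entrez number. A gene was represented by its probe set with the highest mean log2 signal over all arrays. Values were tested as log2(signal + 1) with limma 3.58.1 (R 4.3.3), 1 coefficient per group, 6 residual degrees of freedom, an intensity trend and Benjamini-Hochberg adjustment over 12587 genes, or over 24310 probe sets in a second fit. Tests were two-sided and the steps were tested on simulated data. The number of arrays limits the precision, more so in the fit without the arrays that stood apart, which has fewer residual degrees of freedom.

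The members, the lists of related genes and the settings were chosen with earlier results of these data known. Named genes are the 10 members, the 4 tested genes of each list with the smallest p between miR-376a*G and control, and the 3 genes most like each called member; BAX, PMAIP1, TNFRSF10D, JUN and SNAP25 were added after their values were seen. Other settings covered pseudocount, filter, probe set choice, scaling, array weights, replicate block, and arrays left out. Same-numbered arrays deviated from their group means with r from -0.88 to 0.05. Those means include the arrays that stood apart, so this check cannot decide whether the numbers mark pairs. The labels give no pairing, and the numbers were not taken as pairs.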

Additional observations from a re-analysis of the deposited data

How the results depend on the processing

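Without the arrays that stood apart there were 5269, 7067 and 7508 genes called for miR-376a*A against control, miR-376a*G against control and between the forms (0, 4205 and 4804 with all arrays), with 3, 3 and 4 members (0, 2 and 2 with all arrays) and 9, 14 and 13 member probe sets (0, 6 and 10). Array weights gave 5513, 7866 and 7866 genes and 4, 4 and 5 members. The weights of miR-376a*A replicate 1 and control replicate 1 were 0.15 and 0.17, against 0.67 to 2.93 on the others. That setting is therefore close to leaving them out and no separate check of it. Scaling to the hybridisation controls gave 6510 genes and 4 members for miR-376a*G against control and 8849 genes and 4 members between the forms. Between the forms, 5 members were called on the mean of all probe sets of a gene and 4 with arrays centred on their medians. The replicate block left 6 of 10 member probe sets called between the forms. The deviations of arrays from their group means correlated best with their own number in 0, 1 and 1 of 6 cases in the same order of comparisons. The arrays that stood apart enter these counts, which therefore cannot decide on pairing. The labels give none, so the block tests no known pairing.

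The class medians, over 4 genes each in the main fit, moved by more than the spread between arrays of a group only in some settings, given here. For miR-376a*A against control the pro-survival median was -0.11 with hybridisation scaling, 0.35 with array weights and 0.34 without the arrays that stood apart, and the pro-death median -0.29 with hybridisation scaling and 0.18 without those arrays. For miR-376a*G against control the pro-survival median was 0.087 with no filter and with the strictest filter, 0.45 on probe set means, -0.29 centred and 0.34 with hybridisation scaling, and the pro-death median was 0.51, 0.51, -0.27, -0.27 and 0.34 under the same settings. Between the forms the pro-survival median was 0.041 with a pseudocount of 64, -0.018 under both filters, -0.35 on probe set means, 0.45 centred and -0.45 with hybridisation scaling, and the pro-death median was -0.044, -0.55, -0.55, 0.53, 0.38 and -0.53. The stricter filter drops BCL2 and BMF and the absent filter adds BCL2A1 and BIK, so these medians cover other genes, and each is the value of a single gene. Otherwise the cause was not tested.

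Leaving out 1 array at a time gave 0 genes, members and probe sets called for miR-376a*A against control. It gave 2994 to 4952 genes, 2 to 3 members and 6 to 11 probe sets for miR-376a*G against control, and 3497 to 5602 genes, 2 to 4 members and 5 to 10 probe sets between the forms. The pro-survival medians ranged from 0.047 to 0.28, -0.14 to 0.011 and 0.074 to 0.26, and the pro-death medians from -0.085 to 0.084, -0.14 to 0.058 and -0.0081 to 0.23.

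With hybridisation scaling 7 differences of related genes that were called in at least 1 of the fits turned sign: HIF1A to 0.047 for miR-376a*G against control, and between the forms BIRC6 to -0.35, CFLAR to -0.25, TNFRSF1A to -0.32, YWHAZ to -0.14, HIF1A to -0.080 and BAX to -0.014. Counted once per setting, leaving aside those that drop 1 array, a further 43 differences of related genes and 20 of members, called in neither fit, turned sign. No member's called difference turned sign under any setting run. Signal near the array medians limits BCL2 and BMF, and BCL2A1 and BIK have no test.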
